A study of Mus musculus with 18 samples.

Results

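CD8+ T cells that had been activated under Asn restriction for 24 h were compared with cells that had been activated in control medium for 4 h, to see which parts of early activation restricted cells had left behind after a day. The comparison took its members from the sample labels: 3 libraries of Asn restriction at 24 h and 3 libraries of control at 4 h, 6 of the 18 libraries in the series. Naive CD8+ T cells were taken from lymph nodes and spleen of wild type C57BL/6N mice, labelled male and aged 8-12 weeks, and were activated on plates coated with antibodies against CD3 and CD28, with IL-2 and IL-12 per the study's methods. Control cells grew in complete RPMI medium. Restricted cells grew in RPMI medium without Asn that held dialysed serum and added alanine, and the study's methods describe a control medium with added alanine. The methods at hand link that alanine to a switch to dialysed serum, but do not name the serum of the control libraries sequenced. Any difference in serum between the media cannot be told apart from Asn restriction here. The other 12 libraries, 3 in each of control at 24 h, Asn restriction at 4 h and both media at 72 h, shared in the estimate of the spread, and those at 4 h and 24 h are given beside the comparison because its groups differ in time and in medium. The study's legends speak of replicates of an experiment, and the labels do not tie libraries to separate mice, so the p-values below measure only the spread between libraries. RNA from naive cells before activation was not analysed here, and what counts as early activation comes from textbook gene lists.

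Within hours of engagement of the T cell receptor, calcium, MAP kinase and NF-kappaB signalling switch on immediate early transcription factors, which need no new protein synthesis, and then cytokine and receptor genes. Much of this first wave is held down later by inhibitors that the same signals induce. The cell then grows, copies its DNA and divides, and this growth relies on MYC, ribosome production and the synthesis of nucleotides and lipids, while a lack of amino acids activates ATF4 through the kinase GCN2.

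Total gene counts ran from 15258067 to 20682758 in Asn restriction at 24 h and from 11602396 to 21872456 in control at 4 h, and from 11417641 to 21872456 over all 18 libraries. Of 18522 genes, 14871 passed the filter on low counts and were tested. Levels are CPM, the counts of a gene relative to the library's total on a fixed scale, after TMM scaling, not corrected for gene length, so they compare groups for a gene and not genes with each other. The defining CD8 T cell genes were present in all 6 libraries: Cd8a, which encodes a chain of the CD8 coreceptor, was at 278, 277 and 267 CPM in Asn restriction at 24 h and 269, 256 and 269 CPM in control at 4 h. Of genes that define other blood cells, Cd79a, Ms4a1, Cd4, Ncr1, Lyz2 and Csf1r stayed under 3 CPM (of the total count) in each of the 6 libraries. Cd79b, another B cell gene, was at 2.15 to 3.24 CPM in Asn restriction at 24 h and 1.55 to 2.08 CPM in control at 4 h. Foxp3, of regulatory T cells, was at 0.441 to 0.721 CPM in Asn restriction at 24 h and 1.74 to 1.90 CPM in control at 4 h. Itgax, an integrin of dendritic cells, was at up to 2.20 CPM in Asn restriction at 24 h and 6.64 to 8.78 CPM in control at 4 h, and Zbtb7b, a CD4 lineage factor, at 27.8 to 35.5 CPM in Asn restriction at 24 h and 0.948 to 1.74 CPM in control at 4 h. The tested B cell genes summed to 65.5 to 75.1 CPM in Asn restriction at 24 h and 65.6 to 66.6 CPM in control at 4 h, the NK and gamma-delta T cell genes to 14.0 to 16.4 CPM in Asn restriction at 24 h and 7.49 to 10.9 CPM in control at 4 h, the CD4 and regulatory T cell genes to 49.4 to 55.7 CPM in Asn restriction at 24 h and 13.9 to 17.5 CPM in control at 4 h, and the myeloid genes to 5.65 to 6.54 CPM in Asn restriction at 24 h and 13.7 to 17.4 CPM in control at 4 h. Of the 5 CD4 and regulatory T cell genes tested, 2 were higher and 2 lower in Asn restriction at 24 h, beside 32.7% and 27.8% of all genes. The part of other cell types in the results was not tested, and in bulk libraries fewer cells of a type and less RNA per cell cannot be told apart.

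A difference between the time points went against the labels. Xist, the RNA that silences an X chromosome in female cells, had 15549, 11082 and 12484 counts in the libraries labelled Asn restriction 24 h, against 0, 0 and 1 counts in those labelled control 4 h. The Y-linked genes Ddx3y, Kdm5d, Eif2s3y and Uty together had no counts in Asn restriction at 24 h, against 4429, 2793 and 5629 counts in control at 4 h. The plot of X-inactivation and Y-linked transcripts shows the same split in the other groups, with a female pattern in all 6 libraries at 24 h and a male pattern in all 12 at 4 h and 72 h, although every library is labelled male. Time and sex pattern therefore cannot be told apart in any comparison of 24 h with 4 h, and no fit with sex pattern as a term can be had. Values against control at 24 h, a comparison within the libraries of female pattern, therefore stand beside the main results. Without genes of chromosomes X and Y, which is an alternative chosen after seeing the data, 4720 genes were called higher and 3997 lower.

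**Figure D1:**
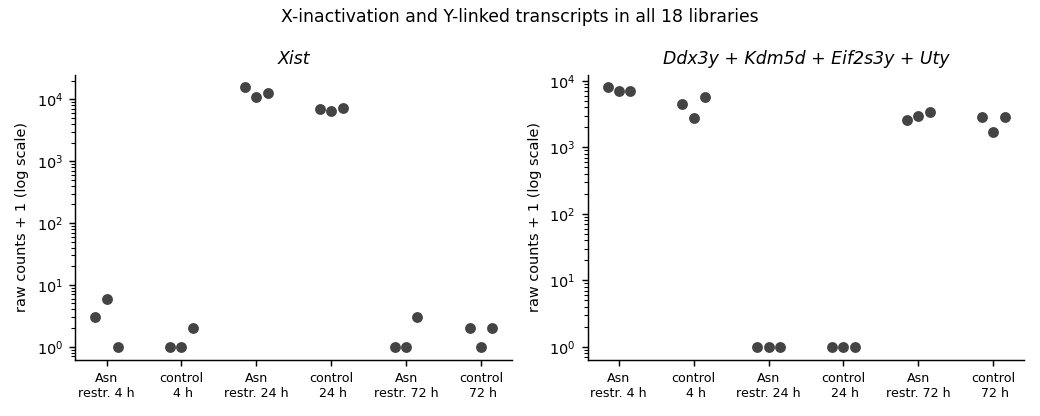
Raw counts plus 1 on a log scale, 3 libraries per group, for Xist (left) and the summed Y-linked genes Ddx3y, Kdm5d, Eif2s3y and Uty (right). All 6 libraries at 24 h have Xist and no Y-linked counts, and all others show the reverse.

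After 24 h of Asn restriction, 4868 genes (32.7% of those tested) were higher and 4127 (27.8%) lower than in control at 4 h at an adjusted p under 0.05. With a change of at least 2-fold, 2160 genes (14.5%) were higher and 1056 (7.10%) lower. Libraries that do not overlap were common: of 14871 genes, 5190 had all restricted libraries above all control libraries and 4596 had them below. The largest rises with a level of at least 10 CPM, apart from Xist, included the DNA replication genes Clspn and Cdc6, and the largest falls, apart from Y-linked genes, included Itgae and Ahr. The split between higher and lower depended on the scaling: of all calls, 54.1% were higher with TMM, 70.6% without TMM factors and 85.7% with libraries scaled to the ERCC spike-ins, which moved the median of all genes to 0.25 and 0.43 on the log2 scale, against 0.042 with TMM. Changes are therefore changes relative to the other genes, and list counts under ERCC scaling stand beside the main ones. ERCC scaling had 5887 of all 14871 genes higher and 980 lower, and list counts with that scaling are to be read against these. List counts with TMM are to be read against 32.7% higher and 27.8% lower. For those against control at 24 h, the shares of all genes were 27.5% higher and 28.0% lower. With ERCC scaling, Junb, Klf2, Tbx21, Il2ra, Ltb, Cish, Cad and Abcc1, which are described below, kept their sign and lost their call.

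On the log2 scale each fold change of the comparison is the sum of a time part, the mean difference of 24 h from 4 h over both media, and a medium part, the mean difference of Asn restriction from control over both times. The time part passed the threshold for 5771 genes higher (38.8%) and 5500 lower (37.0%), and the medium part for 4359 genes higher (29.3%) and 4132 lower (27.8%). The time part holds the change of sex pattern as well, and the medium part does not. In the mirror comparison, control at 24 h against Asn restriction at 4 h, which shares no library with the main one, 5602 genes were higher (37.7%) and 5575 lower (37.5%). There, 3199 (21.5%) were higher and 3001 (20.2%) lower by at least 2-fold. Of the genes at least 2-fold lower, 721 were in both comparisons, which is 68.3% of the 1056 and 24.0% of the 3001. Of the genes at least 2-fold higher, 1478 were in both, which is 68.4% of the 2160 and 46.2% of the 3199. Across 14871 genes, which are not independent, the 2 sets of log2 fold changes had a Pearson r of 0.62 and a Spearman coefficient of 0.57, and both comparisons set libraries of female pattern against libraries of male pattern.

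Most immediate early transcription factors were lower in restricted cells at 24 h than in control cells at 4 h. Of 26 tested, 18 fell and 5 rose (with ERCC scaling, 14 and 7), with a median log2 fold change of -0.91. Nr4a1 (chr15:101254269-101274795, GRCm38, with the span of the gene from GENCODE M21 here and below), a nuclear receptor induced by T cell receptor signals, was at 258, 285 and 287 CPM in Asn restriction at 24 h, against 1397, 1425 and 1377 CPM in control at 4 h (log2 -2.34, SE 0.050, adjusted p = 3.0e-26). Its relative Nr4a3 (chr4:48045153-48086447) was at 249, 262 and 256 CPM, against 1409, 1421 and 1383 CPM in control at 4 h (log2 -2.46, SE 0.044, adjusted p = 6.3e-28). Nr4a2 fell by 4.75-fold as well. The 3 restricted libraries lay far below the 3 control libraries for each of these receptors, with no overlap. Egr2, a zinc finger factor with a role in restraint of activated T cells, was at 111, 114 and 113 CPM, against 380.4, 388 and 385 CPM in control at 4 h (log2 -1.77, SE 0.046, adjusted p = 2.1e-24). Egr3 was at 101, 111 and 105 CPM, against 193, 211 and 188 CPM (log2 -0.89, SE 0.056, adjusted p = 7.3e-15). Fos, the founding AP-1 subunit, was low in both groups, at 4.99, 5.65 and 3.47 CPM, against 15.9, 12.6 and 14.7 CPM in control at 4 h (log2 -1.63, SE 0.15, adjusted p = 1.1e-10). Its relatives Fosl2 (log2 -1.59) and Fosb (log2 -1.38) fell too.

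Other members of this list were little lower than in control at 4 h, or not lower. Egr1, the best known of the immediate early factors, was at 250.3, 251 and 264 CPM in Asn restriction at 24 h, against 294, 306 and 300.3 CPM in control at 4 h, which passed the test at a small size with TMM (log2 -0.23, SE 0.057, adjusted p = 6.6e-04) and had the other sign with ERCC scaling (log2 0.15). Ier2 was at 208, 243 and 247 CPM, against 209, 212 and 203 CPM, and did not pass the test (log2 0.16, SE 0.10, adjusted p = 0.17). Junb fell to 289, 327 and 359.9 CPM, against 420.4, 457 and 439 CPM in control at 4 h (log2 -0.43, SE 0.080, adjusted p = 2.3e-05), while its relative Jun was slightly higher (log2 0.28, SE 0.073, adjusted p = 0.0015). Klf6, a zinc finger factor, was 2.47-fold higher (log2 1.30, SE 0.044, adjusted p = 1.0e-21). Within restricted cells, Egr1 (log2 -2.96), Ier2 (log2 -1.50), Junb (log2 -1.19) and Jun (log2 -0.29) were lower at 24 h than at 4 h. Klf6 did not pass the test there (log2 -0.031, adjusted p = 0.54).

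Against control at 24 h, 16 of the 26 immediate early genes were higher and 4 lower in restricted cells, beside 27.5% higher and 28.0% lower of all genes tested. Egr1 was at 88.7 ± 8.80 CPM in control at 24 h (SD, n = 3), and restricted cells of that age were above it by 1.52 on the log2 scale (adjusted p = 1.7e-19). Nr4a1 was at 109 ± 2.90 CPM there, below restricted cells at 24 h (log2 1.35 in Asn restriction over control, adjusted p = 7.1e-20). Nr4a3 was at 262 ± 9.88 CPM there, and its difference from restricted cells did not pass the test (log2 -0.035, adjusted p = 0.51). Restricted cells had also been higher at 4 h, where Egr1 reached 1985 ± 18.9 CPM and Nr4a1 5187 ± 183 CPM (SD, n = 3). For the list as a whole, the median time part was -1.50 and the median medium part 0.78, so the parts had opposite signs. Control at 24 h against control at 4 h had 4 members higher and 21 lower, beside 34.9% higher and 34.7% lower of all genes.

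**Figure D2:**
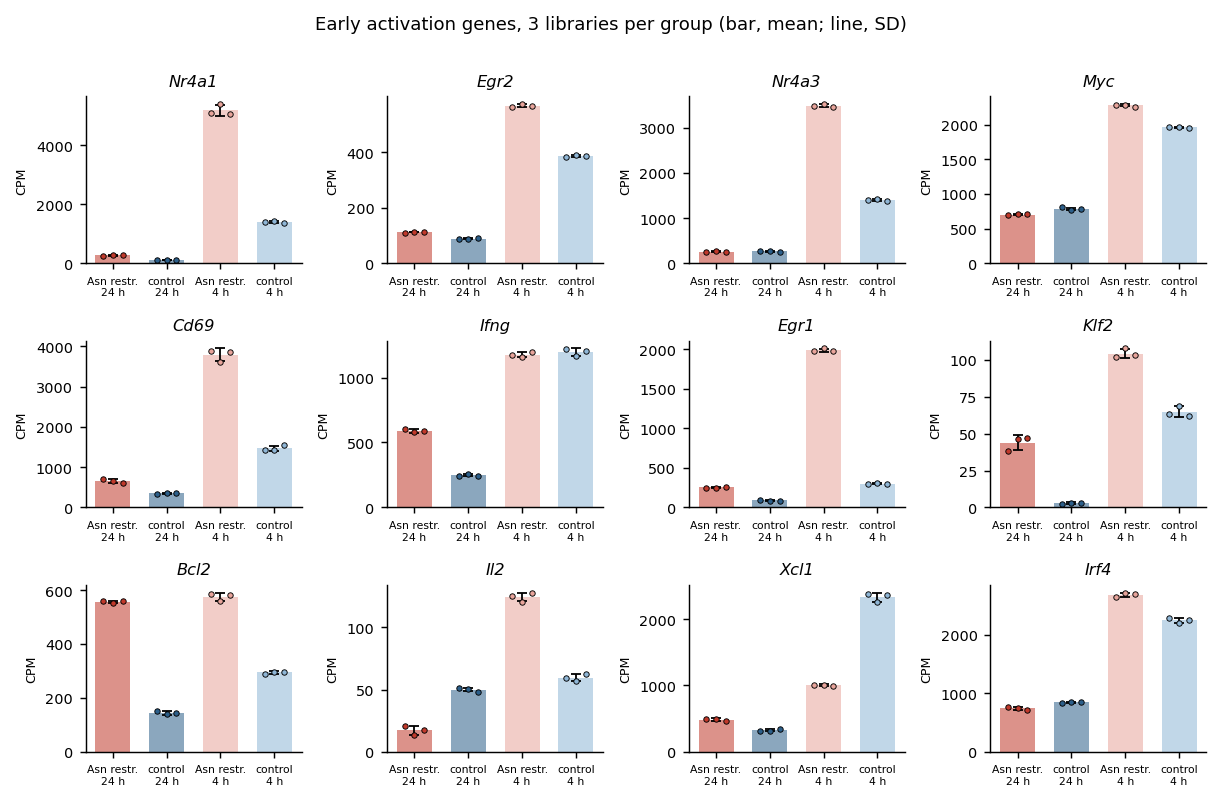
CPM of 12 genes in Asn restriction at 24 h, control at 24 h, Asn restriction at 4 h and control at 4 h (points, 3 libraries; bars, mean; lines, SD; axes start at 0). Nr4a1, Egr2, Myc and Irf4 are low in both 24 h groups, for Egr1, Klf2 and Bcl2 restricted cells at 24 h lie above control cells at 24 h, and for Il2 they lie below them.

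Genes that feed back on the activating signals were mostly lower. Of 20 tested regulators of MAP kinase and calcium signalling, 11 fell, 2 rose and 7 did not pass the test. All genes tested had 27.8% lower and 32.7% higher. The median log2 fold change of the list was -0.37 (with ERCC scaling, 7 lower, 3 higher and a median of 0.015). Spry1, an inhibitor of receptor signalling to ERK, was at 57.9, 61.8 and 56.2 CPM in Asn restriction at 24 h, against 344, 329.7 and 321 CPM in control at 4 h (log2 -2.50, SE 0.055, adjusted p = 4.8e-26). Dusp5, a nuclear phosphatase of ERK, was at 110.0, 119 and 116 CPM, against 304, 310.2 and 306 CPM (log2 -1.41, SE 0.060, adjusted p = 5.0e-19). Both sets of libraries were fully separate. Dusp4 (log2 -1.16), Dusp2 (log2 -0.92), Spred1 (log2 -1.22) and Zfp36l1, which encodes a protein that promotes decay of short-lived mRNAs (log2 -1.46), fell as well. Rcan3, which encodes a regulator of calcineurin, went the other way (log2 1.53, SE 0.12, adjusted p = 7.4e-13). Zfp36 (log2 0.031) and Dusp16 (log2 -0.12) did not pass the test. Restricted cells exceeded control cells at 24 h for 10 of these genes and were below them for 6.

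The NF-kappaB list showed the same direction. Of 18 tested genes, 15 fell and 2 rose, with a median of -0.84 (with ERCC scaling, 9 and 3). Among the subunits, Rel, a subunit prominent in lymphocytes, was at 219, 208 and 209.5 CPM in Asn restriction at 24 h, against 875, 846 and 906 CPM in control at 4 h (log2 -2.04, SE 0.047, adjusted p = 1.3e-25). Nfkb1, which encodes p105 and p50, was at 858, 883 and 850.3 CPM, against 2576, 2449 and 2446 CPM (log2 -1.53, SE 0.038, adjusted p = 7.4e-25). Relb (log2 -1.08) and Rela (log2 -1.05) fell by less. Among the inhibitors, Nfkbid, an atypical IkappaB protein, had one of the widest gaps, at 60.6, 62.2 and 68.8 CPM, against 453, 458 and 449.9 CPM (log2 -2.83, SE 0.072, adjusted p = 1.3e-24). Tnfaip3, which encodes the ubiquitin-editing inhibitor A20, was 4.05-fold lower. Restricted cells at 24 h were above control cells of that age for 14 of the 18 genes and below for 2, with a median of 0.46. Nfkbid did not pass the test there (log2 -0.048, adjusted p = 0.60), and Tnfaip3 was higher in restricted cells (log2 1.03, adjusted p = 1.7e-17).

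Cytokine and chemokine genes were lower on balance. Of 26 tested, 17 fell, 5 rose and 4 did not pass the test, beside 27.8% lower and 32.7% higher of all genes. The median was -0.92 (with ERCC scaling, 14 lower and 7 higher). Xcl1, a chemokine that attracts cross-presenting dendritic cells, was at 497, 489.8 and 461 CPM in Asn restriction at 24 h, against 2387, 2259 and 2361 CPM in control at 4 h (log2 -2.27, SE 0.059, adjusted p = 2.1e-24). Tnfsf14, which encodes the TNF family ligand LIGHT, was at 56.9, 67.4 and 59.0 CPM, against 377, 369 and 389 CPM (log2 -2.64, SE 0.061, adjusted p = 1.3e-25). Ccl4, a chemokine that attracts leukocytes, fell by 4.10-fold. Ifng, the type 1 effector cytokine, was at 606, 579.9 and 585 CPM, against 1216, 1165 and 1207 CPM in control at 4 h (log2 -1.02, SE 0.043, adjusted p = 3.5e-19). Control cells at 24 h were lower still for Ifng, at 249.8 ± 9.70 CPM (SD, n = 3; log2 1.24 in Asn restriction over control at 24 h, adjusted p = 1.5e-20). Tnf was at 116, 112 and 116 CPM, against 197, 216 and 215 CPM in control at 4 h (log2 -0.87, SE 0.060, adjusted p = 8.0e-14). Ltb, a membrane-bound partner of lymphotoxin, was 1.73-fold lower, whereas Csf2 did not pass the test (log2 0.15, SE 0.099, adjusted p = 0.20) and Il13, a type 2 cytokine, was 3.73-fold higher at 18.1, 23.5 and 22.3 CPM, against 6.34, 5.26 and 5.41 CPM (log2 1.90, SE 0.14, adjusted p = 3.7e-13).

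Il2, the growth factor that newly activated T cells make for themselves, was higher in restricted than in control cells at 4 h and lower at 24 h. It (chr3:37120523-37125959) was at 20.7, 13.2 and 17.2 CPM in Asn restriction at 24 h, against 59.7, 57.0 and 62.4 CPM in control at 4 h (log2 -1.80, SE 0.11, adjusted p = 2.5e-15). Control cells at 24 h still had 51.0, 50.4 and 48.3 CPM, so restricted cells were lower than control cells of the same age (log2 -1.54, adjusted p = 2.0e-13), whereas restricted cells at 4 h had 126, 121 and 128 CPM. The effect of Asn restriction on Il2 therefore had opposite signs at the 2 times, and the test of that difference passed (log2 -2.60, adjusted p = 3.9e-15). The Il2 promoter window is shown because this gene, a classic target of NFAT, was among the steepest falls of the early cytokines. It is the RefSeq window on GRCm38.p6, chr3:37125905-37126204, minus strand, which is 300 bases long, 250 before the start of transcription and 50 after it. Capitals mark the NFAT core GGAAA on either strand, which 61.3% of 32851 promoter windows of this length hold.
Il2: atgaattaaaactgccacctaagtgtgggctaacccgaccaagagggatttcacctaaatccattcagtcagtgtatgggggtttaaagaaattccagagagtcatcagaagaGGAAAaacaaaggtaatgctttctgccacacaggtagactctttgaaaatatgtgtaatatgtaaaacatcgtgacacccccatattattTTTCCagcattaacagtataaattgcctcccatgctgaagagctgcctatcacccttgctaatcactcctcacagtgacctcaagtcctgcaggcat
No match to the CRE TGACGTCA, the CArG box, the AP-1 site TGANTCA or the C/EBP-ATF element TGATGNAA was found on either strand of this window, nor was any of these or the NFAT core found in the windows of Fos and Nr4a1. A match of letters is a description of the window and does not show that a factor binds there.

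Surface markers of activation had mostly come down. Of 26 tested, 18 fell, 6 rose and 2 did not pass the test, with a median of -0.69 (with ERCC scaling, 12 lower and 7 higher). Cd69, an early marker that holds cells in lymphoid tissue, was at 699, 657 and 619 CPM in Asn restriction at 24 h, against 1438, 1429.7 and 1542 CPM in control at 4 h (log2 -1.16, SE 0.062, adjusted p = 1.7e-16). Tnfrsf9, which encodes 4-1BB, was at 436, 429 and 425 CPM, against 1277, 1217 and 1228 CPM (log2 -1.53, SE 0.043, adjusted p = 1.3e-23). Cd44, an adhesion receptor of activated cells, was 3.55-fold lower and Il2ra, the alpha chain of the IL-2 receptor, was 1.60-fold lower, at 767, 721 and 708 CPM, against 1182, 1157 and 1178 CPM (log2 -0.68, SE 0.045, adjusted p = 2.4e-14). Lag3, an inhibitory receptor, was the largest rise of the list, at 60.1, 64.5 and 67.0 CPM, against 9.68, 10.6 and 10.9 CPM (log2 2.62, SE 0.088, adjusted p = 1.1e-21). Tnfrsf4, which encodes OX40, rose as well (log2 1.42, SE 0.070, adjusted p = 2.0e-17), and Il2rb, the beta chain of the IL-2 receptor, rose by less (log2 0.39, SE 0.047, adjusted p = 1.2e-08). Cd200 did not pass the test (log2 0.14). The list split evenly against control at 24 h, with 11 higher and 11 lower in restricted cells. Cd69 was higher there (log2 0.92, adjusted p = 1.1e-13), while Cd44 (log2 -0.35, adjusted p = 5.7e-07) and Tnfrsf4 (log2 -0.97, adjusted p = 4.4e-15) were lower.

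Genes by which cytokine receptors limit their own signal split, 5 of 7 lower and 2 higher (with ERCC scaling, 1 and 2). Pim1, a kinase induced by STAT5, was at 807, 832 and 863 CPM in Asn restriction at 24 h, against 1438, 1499 and 1491 CPM in control at 4 h (log2 -0.82, SE 0.049, adjusted p = 1.7e-15), and Cish fell by 1.59-fold. Pim2 went the other way, at 275, 267 and 267 CPM, against 131, 132 and 128 CPM (log2 1.05, SE 0.048, adjusted p = 2.8e-18). Socs2 rose at a low level, with 7.13, 6.94 and 5.99 CPM, against 0.352, 1.16 and 0.479 CPM (log2 3.48, SE 0.24, adjusted p = 5.6e-14).

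Genes of quiescence, homing and the naive state did not move as a group. Of 25 tested, 10 rose, 12 fell and 3 did not pass the test, beside 32.7% higher and 27.8% lower of all genes. The median was -0.14 (with ERCC scaling, 10 higher, 5 lower and a median of 0.25). Ccr7, the chemokine receptor that guides T cells into lymph nodes, was at 649, 628 and 631 CPM in Asn restriction at 24 h, against 168, 157 and 167 CPM in control at 4 h (log2 1.95, SE 0.050, adjusted p = 1.8e-24). Txnip, which encodes a brake on glucose uptake, was at 127, 124 and 131 CPM, against 42.6, 37.2 and 40.1 CPM (log2 1.67, SE 0.063, adjusted p = 2.6e-20). Tcf7, which encodes the memory-associated factor TCF1, was at 169.8, 179 and 181 CPM, against 70.9, 75.2 and 75.9 CPM (log2 1.25, SE 0.078, adjusted p = 5.4e-15). These rises came with rises of Cdkn1b, which encodes the CDK inhibitor p27 (log2 1.37, SE 0.079, adjusted p = 1.1e-15), of Rbl2, a pocket protein of resting cells (log2 1.28, SE 0.10, adjusted p = 2.6e-12), and of Tsc22d3 (log2 1.22, SE 0.065, adjusted p = 1.3e-16). Foxp1, a factor that maintains quiescence, fell to 259.5, 247 and 244 CPM, against 608, 613 and 622 CPM (log2 -1.29, SE 0.054, adjusted p = 2.4e-19). Klf2, which drives homing receptors, was at 38.0, 46.6 and 46.8 CPM, against 63.6, 69.0 and 62.2 CPM in control at 4 h (log2 -0.57, SE 0.089, adjusted p = 2.0e-06), but control cells at 24 h had only 2.32, 3.16 and 3.19 CPM (log2 3.92 in Asn restriction over control at 24 h, adjusted p = 1.9e-21). With control at 24 h as the reference, 13 members were higher and 4 lower in restricted cells. Ccr7 (log2 1.15), Txnip (log2 1.58) and Tsc22d3 (log2 2.65) were among the higher, and Tcf7 did not pass the test there (log2 0.078, adjusted p = 0.38).

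The survival gene Bcl2 was higher in restricted cells at 24 h than at either control time. It was at 559.9, 553 and 558 CPM in Asn restriction at 24 h, against 288, 297 and 297 CPM in control at 4 h (log2 0.92, SE 0.042, adjusted p = 3.6e-18). Control cells at 24 h had 149.9, 138 and 143 CPM (log2 1.96 in Asn restriction over control at 24 h, adjusted p = 5.7e-25) and restricted cells at 4 h had 586, 559 and 582 CPM, from which restricted cells at 24 h did not differ by the test (log2 -0.047 at 24 h over 4 h, adjusted p = 0.33). Its relatives Bcl2l1, which encodes BCL-XL (log2 -0.93, SE 0.054, adjusted p = 9.4e-16), and Bcl2a1b and Bcl2a1d, near-identical copies whose counts are uncertain (log2 -1.08 and -1.17), were lower, and Mcl1 did not pass the test (log2 -0.029). Over the 7 anti-apoptotic genes tested, 2 rose and 3 fell (with ERCC scaling, 2 and 3), and over the 9 pro-apoptotic genes, 3 rose and 3 fell (with ERCC scaling, 3 and 2). These small counts are near the share over all genes, of which 32.7% were higher and 27.8% lower. Bcl2l11, which encodes the BH3-only protein BIM, was at 60.1, 63.6 and 60.6 CPM, against 223, 218 and 229 CPM in control at 4 h (log2 -1.86, SE 0.061, adjusted p = 5.8e-22). Bbc3, which encodes PUMA, was higher, at 34.6, 39.6 and 44.3 CPM, against 17.1, 19.5 and 19.1 CPM (log2 1.09, SE 0.11, adjusted p = 6.6e-10).

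Effector genes showed both directions. Gzmb, the main cytotoxic granule protease of activated CD8 T cells, was at 1739, 1701 and 1678 CPM in Asn restriction at 24 h, against 262, 288 and 277 CPM in control at 4 h (log2 2.63, SE 0.056, adjusted p = 2.7e-26), with no overlap. Control cells at 24 h were higher, at 2729.8 ± 63.7 CPM (SD, n = 3; log2 -0.68 in Asn restriction over control at 24 h, adjusted p = 1.5e-12). Prf1, the pore-forming partner of granzymes, was at 86.3, 89.8 and 88.8 CPM, against 83.2, 76.0 and 88.3 CPM, with overlapping libraries and no call (log2 0.092, SE 0.064, adjusted p = 0.22). The chains of the IL-12 receptor rose, Il12rb2 to 174, 155 and 149 CPM, against 51.6, 50.7 and 52.6 CPM in control at 4 h (log2 1.62, SE 0.078, adjusted p = 1.1e-17), and Il12rb1 by 2.97-fold. Srgn, which encodes the proteoglycan that packs granules, fell to 229, 209 and 209.6 CPM, against 994, 938 and 982 CPM (log2 -2.17, SE 0.048, adjusted p = 4.8e-26). Over the 20 genes tested, 8 rose, 7 fell and 5 did not pass the test (with ERCC scaling, 10 and 3). These counts are near the share over all genes, of which 32.7% were higher and 27.8% lower.

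Of 16 effector and exhaustion transcription factors, 6 rose and 8 fell (with ERCC scaling, 7 and 6), beside 32.7% and 27.8% of all genes. Irf4, whose level follows the strength of the T cell receptor signal, was at 760.3, 739 and 715 CPM in Asn restriction at 24 h, against 2279.6, 2206 and 2244 CPM in control at 4 h (log2 -1.60, SE 0.040, adjusted p = 7.8e-25). Irf8 was 2.64-fold lower and Zeb2 2.93-fold lower. Tbx21, which encodes the type 1 regulator T-bet, was at 105, 118 and 121 CPM, against 157, 164 and 154 CPM (log2 -0.46, SE 0.066, adjusted p = 4.1e-07). Irf4 was slightly lower in restricted cells than in control at 24 h (log2 -0.19, adjusted p = 1.6e-04) and Tbx21 did not pass the test (log2 0.031, adjusted p = 0.72). Batf3, an AP-1 family factor, rose to 14.8, 16.7 and 18.4 CPM, against 1.11, 0.713 and 0.287 CPM (log2 4.61, SE 0.26, adjusted p = 8.2e-16). Tox2 fell to 1.14, 0.647 and 0.396 CPM, against 8.74, 9.19 and 8.09 CPM (log2 -3.53, SE 0.31, adjusted p = 1.6e-11).

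The lists with the largest median rise were those of DNA replication and mitosis. All 57 tested genes of mitosis rose, with a median log2 fold change of 2.83, and 59 of 60 DNA replication genes rose, with a median of 1.69, in each case also with ERCC scaling. Rrm2 (chr12:24708241-24714146), a subunit of the enzyme that makes deoxynucleotides, was at 85.0, 76.8 and 75.9 CPM in Asn restriction at 24 h, against 3.46, 2.94 and 4.26 CPM in control at 4 h (log2 4.43, SE 0.097, adjusted p = 4.8e-26). Cdc6, which loads the replicative helicase, was at 35.6, 38.1 and 32.9 CPM, against 1.11, 1.34 and 1.63 CPM (log2 4.68, SE 0.13, adjusted p = 4.6e-24). Clspn, a checkpoint mediator at replication forks, was at 33.3, 29.1 and 30.9 CPM, against 0.763, 0.624 and 1.39 CPM (log2 4.96, SE 0.15, adjusted p = 9.2e-23). Each was under 5 CPM in all 3 control libraries at 4 h. Others started from a clear level: Mcm2, a subunit of the helicase, was at 231, 247 and 253 CPM, against 118, 115 and 118 CPM (log2 1.06, SE 0.050, adjusted p = 5.6e-18), and Pcna, the sliding clamp, rose by 1.53-fold. The exception was Pold2, a subunit of DNA polymerase delta, which was called lower (log2 -0.20, SE 0.062, adjusted p = 0.0069) but had the other sign without TMM factors (log2 0.014) and with ERCC scaling (log2 0.20).

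Mitotic genes followed the same order. Mki67, a marker of cycling cells, was at 113, 109 and 103 CPM in Asn restriction at 24 h, against 11.7, 13.1 and 14.7 CPM in control at 4 h (log2 3.03, SE 0.079, adjusted p = 2.1e-24). Ccnb1, which encodes cyclin B1, was at 19.7, 18.7 and 18.9 CPM, against 2.82, 1.07 and 1.91 CPM (log2 3.23, SE 0.15, adjusted p = 5.2e-18). Cdk1, its kinase partner, was at 24.3, 21.3 and 23.2 CPM, against 1.70, 2.05 and 0.909 CPM (log2 3.98, SE 0.15, adjusted p = 2.3e-20). Every restricted library exceeded every control library for these genes. In control cells at 24 h they were higher again: Rrm2 was at 239 ± 6.16 CPM and Mki67 at 243 ± 6.13 CPM (SD, n = 3). Against that group, restricted cells were lower for 60 of 60 replication genes (median -1.17) and 56 of 57 mitotic genes (median -1.26). The rise of these lists thus held a large positive time part, with medians of 2.46 for replication and 3.30 for mitosis, and a smaller negative medium part, with medians of -0.77 and -0.59.

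Genes of entry to the cycle were split, 8 of 16 higher and 7 lower (with ERCC scaling, 9 and 3). All genes tested had 32.7% higher and 27.8% lower. Ccnd2, which encodes cyclin D2, fell to 1245, 1248 and 1227 CPM in Asn restriction at 24 h, against 3142, 3075 and 3119 CPM in control at 4 h (log2 -1.33, SE 0.040, adjusted p = 7.5e-23). Ccnd3, which encodes cyclin D3, rose to 120.0, 124 and 122 CPM, against 25.5, 26.9 and 23.0 CPM (log2 2.29, SE 0.069, adjusted p = 6.9e-23). Cdk2, the partner of cyclins E and A, rose (log2 1.58, SE 0.078, adjusted p = 1.9e-17), and so did Cdkn2c (log2 2.37, SE 0.22, adjusted p = 6.9e-11) and Cdkn2d (log2 2.16, SE 0.13, adjusted p = 5.8e-15), which encode inhibitors of CDK4 and CDK6. Cdkn1a, which encodes p21, was at 89.3, 97.5 and 92.6 CPM, against 81.7, 81.1 and 74.4 CPM (log2 0.24, SE 0.053, adjusted p = 2.3e-04), whereas control cells at 24 h had only 18.4, 19.8 and 19.4 CPM (log2 2.28 in Asn restriction over control at 24 h, adjusted p = 1.4e-23).

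**Figure D3:**
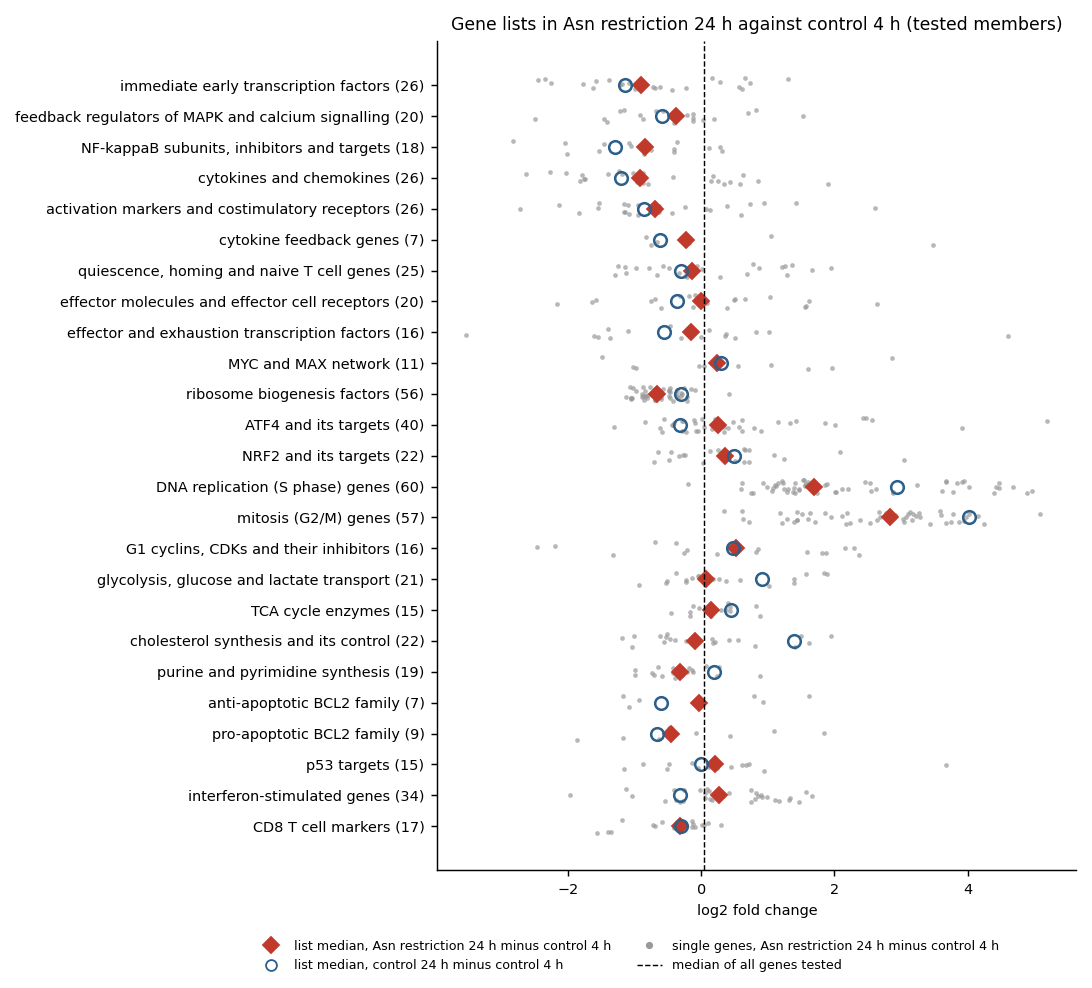
Log2 fold changes of the tested members of 25 gene lists in Asn restriction at 24 h over control at 4 h (grey points), their medians (red diamonds) and the medians of control at 24 h over control at 4 h (open blue circles), with the number of tested members in brackets. The early lists lie left of the dashed median of all genes tested, replication and mitosis far to its right, and the blue circles lie further from it than the diamonds for the early lists, replication, mitosis, glycolysis and cholesterol synthesis.

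Myc and the genes of ribosome production had come down. Myc (chr15:61985391-61990374), which drives growth of activated T cells, was at 689.6, 709 and 706 CPM in Asn restriction at 24 h, against 1964, 1971 and 1952 CPM in control at 4 h (log2 -1.48, SE 0.037, adjusted p = 7.8e-25). Control cells at 24 h were close to restricted cells, at 806, 767 and 778 CPM (log2 -0.16 in Asn restriction over control at 24 h, adjusted p = 4.1e-04). Of the other MYC network genes, Mxd4 (log2 1.96, SE 0.13, adjusted p = 1.2e-14) and Mxd1 (log2 0.55, SE 0.072, adjusted p = 8.0e-08), which encode repressors that compete with MYC for MAX, rose, and Max itself did not pass the test (log2 -0.036). Of 56 ribosome biogenesis factors, 54 fell and 1 rose, with a median of -0.67. With ERCC scaling 15 fell and 1 rose, with a median of -0.28. All 14871 genes had 980 lower and 5887 higher with that scaling, with a median of 0.43. Heatr1, a processing factor of ribosomal RNA, was at 378, 361 and 343 CPM, against 771, 723 and 753 CPM (log2 -1.05, SE 0.045, adjusted p = 4.3e-19). Polr1b, a core subunit of RNA polymerase I, was at 159.9, 168 and 168 CPM, against 358, 333 and 340.5 CPM (log2 -1.06, SE 0.043, adjusted p = 1.6e-19). Of the 56, 7 fell by at least 2-fold. Against control at 24 h, 43 were lower and 3 higher in restricted cells, with a median of -0.31, and the median time and medium parts were both below 0, at -0.44 and -0.18.

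Genes of nucleotide synthesis had a similar sign and a smaller size. Of 19, 15 fell and 3 rose, with a median of -0.33 (with ERCC scaling, 2 fell, 4 rose and the median was 0.064). Cad, the first enzyme of pyrimidine synthesis, was at 433, 463 and 476 CPM in Asn restriction at 24 h, against 759, 755 and 722 CPM in control at 4 h (log2 -0.70, SE 0.052, adjusted p = 4.2e-13). Impdh1, an enzyme of guanine nucleotide synthesis, was 1.99-fold lower and its relative Impdh2 did not pass the test (log2 0.078). Compared with control at 24 h, 18 of 19 were lower in restricted cells.

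Genes of glycolysis went both ways. Of 21, 10 rose, 6 of them by at least 2-fold, and 6 fell against control at 4 h. All genes tested had 32.7% higher and 27.8% lower. The median of the list was 0.072 (with ERCC scaling, 11 rose and 1 fell, with a median of 0.46). Ldha, which makes lactate, was at 1114, 1152 and 1171 CPM in Asn restriction at 24 h, against 1169, 1173 and 1174 CPM in control at 4 h, and did not pass the test (log2 -0.033, SE 0.036, adjusted p = 0.46). Control cells at 24 h had 2607 ± 34.5 CPM and restricted cells at 4 h 488 ± 12.4 CPM (SD, n = 3). Pkm, pyruvate kinase, had the same order, with no call against control at 4 h (log2 -0.022, SE 0.041, adjusted p = 0.67), and without TMM factors both were called higher (log2 0.18 for Ldha and 0.19 for Pkm). Tpi1, triose phosphate isomerase, did rise, to 189, 189 and 185 CPM, against 51.7, 50.7 and 53.5 CPM (log2 1.85, SE 0.050, adjusted p = 4.4e-24), and so did Eno1, enolase (log2 1.40, SE 0.051, adjusted p = 1.0e-20), and Gapdh (log2 1.02, SE 0.042, adjusted p = 2.1e-19). Hk2, the induced hexokinase, was lower (log2 -0.94, SE 0.041, adjusted p = 8.2e-19). The median time part of the list was 1.08 and the median medium part -0.81. Against control at 24 h, 20 of 21 were lower in restricted cells, while control at 24 h against control at 4 h had 18 higher and 2 lower. In that last comparison, 34.9% of all genes were higher and 34.7% lower.

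Cholesterol synthesis had the most negative median medium part of the lists, at -1.48, with a median time part of 1.36. Against control at 4 h, 8 of 22 rose, 10 fell and 4 did not pass the test, beside 32.7% and 27.8% of all genes. By at least 2-fold, 4 rose and 3 fell. The median was -0.087 (with ERCC scaling, 10 genes were called higher and 3 lower). Insig1, a sterol-sensing regulator, was at 97.6, 102 and 104 CPM in Asn restriction at 24 h, against 197, 212 and 200.5 CPM in control at 4 h (log2 -1.01, SE 0.048, adjusted p = 7.1e-18), and at 296, 318 and 301 CPM in control at 24 h. Dhcr7, which acts in the last step of synthesis, rose to 15.2, 14.2 and 15.7 CPM, against 4.28, 3.92 and 3.59 CPM in control at 4 h (log2 1.94, SE 0.12, adjusted p = 6.3e-15), still under the 47.1, 49.2 and 47.7 CPM of control at 24 h. All 22 genes were lower in restricted cells than in control at 24 h, and all were higher in control at 24 h than in control at 4 h. Of 15 TCA cycle enzymes, 8 rose and 3 fell against control at 4 h, beside 32.7% and 27.8% of all genes. Each changed by less than 2-fold, and with ERCC scaling 10 rose and the 3 falls lost their call. Sdhd, a subunit of succinate dehydrogenase, was at 106, 110.0 and 107 CPM, against 57.1, 58.9 and 58.9 CPM (log2 0.89, SE 0.061, adjusted p = 6.9e-14).

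**Figure D4:**
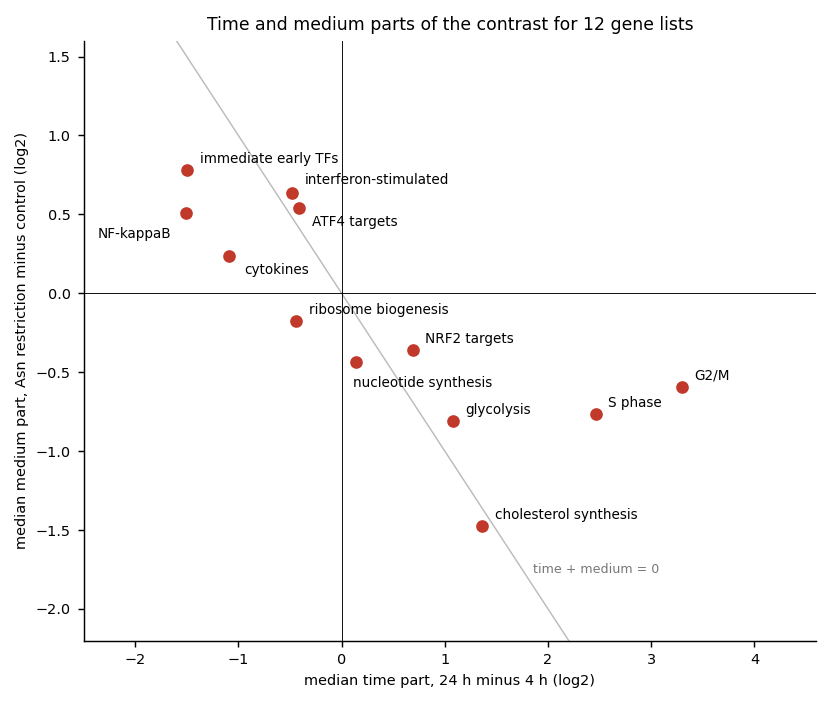
Median time part (x axis, log2, both 24 h groups minus both 4 h groups) against median medium part (y axis, log2, both Asn restriction groups minus both control groups) for 12 gene lists. On the grey line the medians of the parts cancel: glycolysis, cholesterol synthesis and ATF4 targets are among those near it, replication and mitosis far to its right, and immediate early, NF-kappaB and cytokine genes to its left.

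Genes of the ATF4 pathway went both ways. Of 40 tested, Atf4 and its known targets, 21 were higher and 13 lower in Asn restriction at 24 h than in control at 4 h. All genes tested had 32.7% higher and 27.8% lower. The median of the list was 0.25 (with ERCC scaling, 22 higher and 2 lower). Asns (chr6:7675169-7693254), the enzyme that makes Asn, was at 106, 104 and 104 CPM, against 27.9, 24.2 and 26.1 CPM in control at 4 h (log2 2.0, SE 0.063, adjusted p = 2.1e-22). The stress factor genes Ddit3, which encodes CHOP, with 56.5, 58.6 and 60.1 CPM, against 9.80, 8.20 and 12.6 CPM (log2 2.48, SE 0.11, adjusted p = 5.0e-19), and Atf5, with 113 ± 12.0 CPM, against 19.1 ± 0.596 CPM (SD, n = 3 each; log2 2.56, SE 0.11, adjusted p = 3.4e-19), were higher too. Trib3, a pseudokinase that feeds back on this pathway, was 3.63-fold higher, and Slc7a11, the cystine transporter, 2.67-fold higher. Atf4 mRNA itself did not pass the test, at 556, 570.1 and 561 CPM, against 601, 595 and 558 CPM (log2 -0.055, SE 0.044, adjusted p = 0.29), though without TMM factors it was called higher (log2 0.16). Wars and Aars, which encode tRNA synthetases, did not pass it either (log2 -0.073 and 0.0083). Against control at 24 h, 28 were higher and 4 lower, with Ddit3 at 10.8, 7.38 and 6.92 CPM in that group. In restricted cells at 4 h, 39 of the 40 had been higher than in control at 4 h, beside 23.6% higher and 22.0% lower of all genes tested, with Ddit3 at 114, 105 and 106 CPM. The median time part was -0.41 and the median medium part 0.54.

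The Asns promoter is shown because Asns rose with both time and medium (time part 0.95, medium part 1.06) and because C/EBP-ATF elements are the known binding sites of ATF4 dimers. The RefSeq window on GRCm38.p6 is chr6:7693160-7693459, minus strand, with the same layout as the window of Il2. Capitals mark the element TGATGNAA, which 3.97% of 32851 windows hold on either strand.
Asns: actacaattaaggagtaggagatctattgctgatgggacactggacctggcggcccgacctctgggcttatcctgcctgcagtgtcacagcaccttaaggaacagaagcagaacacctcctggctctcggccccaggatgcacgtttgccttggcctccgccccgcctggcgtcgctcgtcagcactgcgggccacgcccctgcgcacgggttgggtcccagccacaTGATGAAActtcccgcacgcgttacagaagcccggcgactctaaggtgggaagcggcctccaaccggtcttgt
The match lies at bases 228 to 235 of the window, and none of the other motifs searched was found in it.

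**Figure D5:**
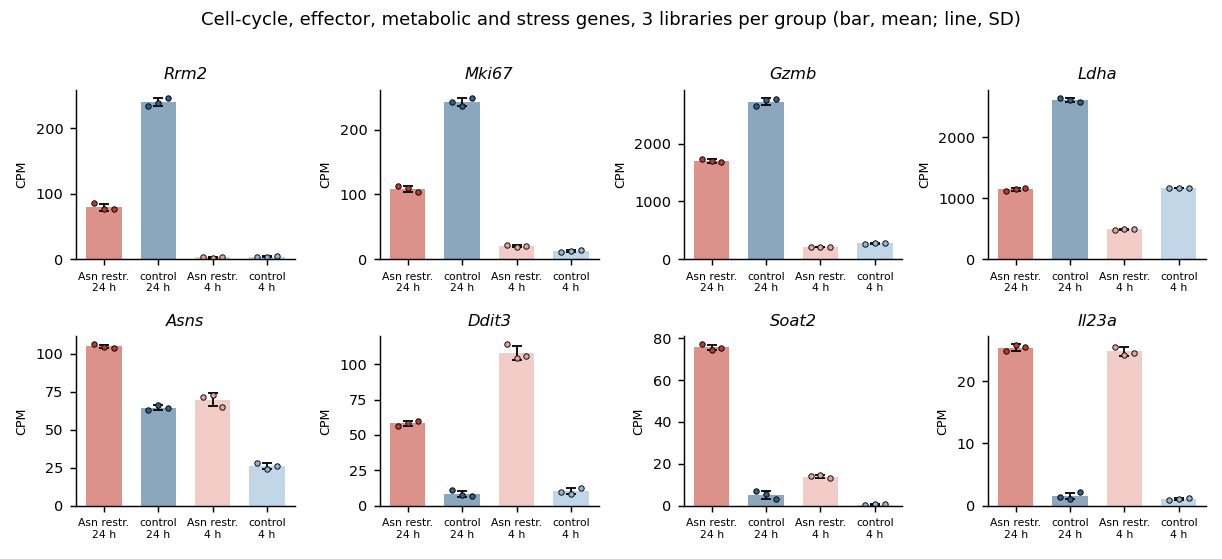
CPM of 8 genes in Asn restriction at 24 h, control at 24 h, Asn restriction at 4 h and control at 4 h (points, 3 libraries; bars, mean; lines, SD; axes start at 0). Rrm2, Mki67 and Gzmb in restricted cells at 24 h lie between control at 4 h and control at 24 h, Ldha is level with control at 4 h, and Ddit3, Soat2 and Il23a are higher in both restricted groups than in either control group.

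Of 22 tested genes of the NRF2 list, NRF2 and its targets, 13 rose and 6 fell, beside 32.7% and 27.8% of all genes. The median was 0.36 (with ERCC scaling, 14 rose and the 6 falls lost their call). Nfe2l2, which encodes NRF2, was at 56.8, 57.2 and 46.9 CPM in Asn restriction at 24 h, against 26.5, 24.0 and 24.9 CPM in control at 4 h (log2 1.09, SE 0.083, adjusted p = 7.1e-13). Its medium part of 1.01 was nearly the whole of that change, with a time part of 0.077. The list as a whole had the other sign in medium, with a median medium part of -0.36 and a median time part of 0.69. In restricted cells at 4 h, 2 members were higher and 14 lower than in control at 4 h, beside 23.6% and 22.0% of all genes. Txn1, thioredoxin, rose to 472, 461 and 463 CPM, against 203, 192 and 195 CPM (log2 1.24, SE 0.042, adjusted p = 1.9e-21), and control cells at 24 h had more of it, at 596, 615 and 623 CPM. Nqo1, a classic NRF2 target, rose at a very low level, with 1.75, 2.12 and 1.88 CPM, against 0.235, 0.268 and 0.191 CPM (log2 3.05, SE 0.62, adjusted p = 7.8e-05). Txnrd1, thioredoxin reductase, did not pass the test (log2 0.024), and Abcc1, an exporter of glutathione conjugates, fell (log2 -0.65, SE 0.050, adjusted p = 1.1e-12). Compared with control at 24 h, 8 members were higher and 9 lower in restricted cells.

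Interferon-stimulated genes went both ways. Of 34 tested, 16 rose, 8 fell and 10 did not pass the test, beside 32.7% higher and 27.8% lower of all genes. The median was 0.27 (with ERCC scaling, 19 rose and 3 fell). Isg15, a ubiquitin-like modifier, was at 27.8, 28.4 and 24.1 CPM in Asn restriction at 24 h, against 10.6, 8.38 and 9.67 CPM in control at 4 h (log2 1.47, SE 0.11, adjusted p = 1.3e-12). Zbp1, a nucleic acid sensor, was at 46.1, 38.5 and 42.5 CPM, against 16.5, 18.5 and 16.0 CPM (log2 1.33, SE 0.095, adjusted p = 1.5e-13). The guanylate-binding protein Gbp7 fell to 32.8, 32.7 and 29.6 CPM, against 124, 121 and 128 CPM (log2 -1.97, SE 0.065, adjusted p = 7.6e-22), and Gbp3 fell too (log2 -1.13, SE 0.095, adjusted p = 7.7e-12), both of a family with similar copies that share reads. Irf1 did not pass the test (log2 0.062). Of 15 p53 targets, 4 rose, 5 fell and 6 did not pass it, beside 32.7% higher and 27.8% lower of all genes. The balance of this list turned with the scaling, to 8 higher and 1 lower with ERCC scaling and 9 higher and 4 lower without TMM factors. Mdm2 did not pass the test (log2 0.12) and Aen, a nuclease, was the largest fall (log2 -1.16, SE 0.061, adjusted p = 1.1e-16).

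Genes of the T cell receptor complex differed in size of change. Cd8a (log2 0.048, SE 0.043, adjusted p = 0.35), Cd3d (log2 0.015, SE 0.059, adjusted p = 0.84) and the kinase gene Lck (log2 -0.099, SE 0.047, adjusted p = 0.069) did not pass the test. Trac, the constant region of the receptor's alpha chain, was at 278, 261 and 249 CPM in Asn restriction at 24 h, against 602, 593 and 605 CPM in control at 4 h (log2 -1.19, SE 0.044, adjusted p = 1.4e-20). Zap70, the kinase recruited by the receptor, was at 182, 198 and 206 CPM, against 588, 580.3 and 565 CPM (log2 -1.57, SE 0.070, adjusted p = 1.6e-18), and Ptprc, which encodes CD45, was 2.64-fold lower. Of 17 tested CD8 T cell genes, 12 fell and 1 rose (with ERCC scaling, 4 and 2).

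The largest falls, after the Y-linked genes, were led by Itgae. This gene (chr11:73090583-73147446), which encodes a chain of the integrin CD103 that binds epithelial cadherin, was at 2.14, 1.82 and 2.43 CPM in Asn restriction at 24 h, against 40.4, 40.0 and 40.6 CPM in control at 4 h (log2 -4.23, SE 0.12, adjusted p = 2.9e-23), with 2.03, 2.19 and 2.06 CPM in control at 24 h. Ahr, a ligand-activated receptor for aryl hydrocarbons, was at 4.99, 5.35 and 3.81 CPM, against 47.3, 41.3 and 43.1 CPM (log2 -3.22, SE 0.12, adjusted p = 5.9e-21), and control at 24 h had 8.35, 7.81 and 8.25 CPM, slightly above restricted cells (log2 -0.79 in Asn restriction over control at 24 h, adjusted p = 4.7e-06). Samd4, a regulator of mRNA translation, fell to 0.788, 1.24 and 1.78 CPM, against 20.9, 22.6 and 22.0 CPM (log2 -4.11, SE 0.18, adjusted p = 1.7e-18). Myo6, an unconventional myosin, fell to 2.63, 2.24 and 1.93 CPM, against 21.6, 19.8 and 19.3 CPM (log2 -3.15, SE 0.17, adjusted p = 3.1e-16), and the unnamed genes Gm43412 (log2 -3.52) and Gm43820 (log2 -3.51) completed the 10 largest falls with 4 Y-linked genes. Gm43820 (chr3:37644607-37647952) starts just after the end of Spry1 (chr3:37639947-37644598) on the same strand. Whether its counts are separate from those of Spry1 was not tested. Ddx3y was at least 904-fold lower, Kdm5d 352-fold, Eif2s3y 337-fold and Uty 113-fold, set against a floor of 3 counts per library because no library at 24 h had a count.

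Among the largest rises, several carried a large medium part. Soat2 (chr15:102150526-102163469), an enzyme that esterifies cholesterol, was at 77.0, 74.5 and 75.3 CPM in Asn restriction at 24 h, against 0.293, 0.535 and 0.574 CPM in control at 4 h (log2 7.32, SE 0.22, adjusted p = 4.5e-23). It was at 6.95, 5.40 and 3.24 CPM in control at 24 h and 14.0, 14.5 and 13.0 CPM in restricted cells at 4 h, with a medium part of 4.36 and a time part of 2.95. Il23a, the p19 subunit of IL-23, was at 24.9, 25.8 and 25.5 CPM, against 0.939, 0.981 and 1.20 CPM (log2 4.58, SE 0.17, adjusted p = 1.3e-20). Restricted cells had reached that level by 4 h, at 25.6, 24.3 and 24.5 CPM, while control cells at 24 h stayed at 1.40, 1.07 and 2.11 CPM, so the change was nearly all medium part (4.29, against a time part of 0.29). Angptl6, a secreted angiopoietin-like protein, was at 28.4, 26.9 and 32.7 CPM, against 1.41, 1.34 and 1.48 CPM (log2 4.36, SE 0.22, adjusted p = 4.4e-17), and AA467197 at 44.1, 44.2 and 40.2 CPM, against 2.93, 5.71 and 4.45 CPM (log2 3.34, SE 0.16, adjusted p = 6.6e-18). Both stayed near the control 4 h level in control at 24 h (log2 -0.41 and -0.22 there). The replication-linked genes E2f8 (log2 5.56, SE 0.25, adjusted p = 1.8e-18) and Pclaf (log2 4.57, SE 0.15, adjusted p = 5.6e-22), the unnamed D630039A03Rik (log2 5.17, SE 0.30, adjusted p = 1.3e-15) and Mucl2, with no count in control at 4 h and at least 63.0-fold more in Asn restriction at 24 h, completed the list. Mucl2 had counts at 24 h only, in both media.

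Among the genes with the most negative medium parts, Scd2, a fatty acid desaturase, was at 48.7, 48.1 and 50.3 CPM in Asn restriction at 24 h, against 8.39, 9.81 and 7.51 CPM in control at 4 h (log2 2.55, SE 0.067, adjusted p = 2.3e-24), although control cells at 24 h had 551, 544 and 533 CPM (log2 -3.47 in Asn restriction over control at 24 h, adjusted p = 1.5e-30). Arhgdig and Dnph1, a hydrolase of deoxynucleotides, rose by 2.19-fold and 3.52-fold over control at 4 h and were lower than in control at 24 h (log2 -1.32 and -1.33).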

How the data were processed

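Total RNA of 18 libraries, 3 in each of 6 groups of medium and time, was sequenced on an Illumina HiSeq instrument with ERCC spike-ins. The deposited table holds raw counts per gene for each library, which the authors made from their reads. The submitters' processing notes name Trim Galore 0.60, STAR 2.7, RSEM 1.31 and the builds hg19 and mm10, with no role given. The authors also deposited normalized counts (a signal scaled between libraries) and their own log2 fold changes and p-values, none of which was used. The table had 18522 genes and 63 ERCC rows, and the ERCC rows were left out of library sizes and tests. Counting by strand is not given in the sources used here, so overlapping genes may share counts. Of the gene identifiers, 17707 matched GENCODE M21 (GRCm38) with their version and 18508 without it.

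Genes were filtered by filterByExpr, scaled by TMM and tested with the edgeR 4.0.16 quasi-likelihood test in R 4.3.3, with 6 group means over 18 libraries and Benjamini-Hochberg adjustment over 14871 genes at 0.05. Every adjusted p comes from this fit. Gene lists are described by counts and medians, with no set test. The genes compared and the lists were chosen with earlier results of these data known. Genes were named by rule: the 10 largest rises and falls with at least 10 CPM in a group and libraries that do not overlap, up to 8 called members of each list with the largest change and up to 4 with the smallest, genes that define a list or that the study names, and the 5 largest and smallest medium parts. Libraries of a group differed by more than counting noise, with a chi-square per degree of freedom of 2.69 to 6.06. The scripts were tested on simulated data. Alternatives were DESeq2 1.42.0, limma-voom (limma 3.58.1), other scalings, filters, samples and thresholds, a replicate block and leaving out each library. Promoter windows are from RefSeq (GRCm38.p6), searched for motifs on both strands. A few genes the rule allows are not reported here.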

Additional observations from a re-analysis of the deposited data

Results flagged for a closer look

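For 18 of the genes named above, Asn restriction had effects of opposite sign at 24 h and 4 h, each past the threshold, and the test of the difference between them passed too (edgeR quasi-likelihood interaction, Asn restriction minus control at 24 h, less the same at 4 h). Of these, 10 were lower in restricted than in control cells at 24 h and higher at 4 h, with a difference on the log2 scale of -3.11 for E2f8, -2.60 for Il2, -1.79 for Mki67, -1.40 for Socs2, -0.94 for Irf8, -0.81 for Dusp4, -0.71 for Lck, -0.59 for Max, -0.44 for Irf4 and -0.37 for Myc. The other 8 were higher in restricted cells at 24 h and lower at 4 h, with a difference of 2.22 for Bbc3, 1.85 for Ltb, 1.80 for Xcl1, 1.30 for Ccr7, 0.91 for Zeb2, 0.74 for Abcc1, 0.73 for Ccl4 and 0.69 for Tnfrsf9. The adjusted p of these differences ran up to 0.0035 (Socs2). At 4 h, E2f8 rested on few counts, at 0.235, 0.446 and 0.144 CPM in control and 1.13, 0.488 and 0.654 CPM in Asn restriction. The genes were picked by the 2 effects, so a pass of the test of their difference was nearly fixed in advance. It adds no support, and how many of all genes tested meet this rule was not counted. In all of the 18 genes but Socs2 the 3 restricted libraries did not overlap the 3 control libraries at either time. Genes picked as called at both times are likely to show this, and the share over all genes was not counted at these times. The libraries at 24 h have a female pattern and those at 4 h a male pattern, so a difference between times and a difference between sex patterns cannot be told apart here.

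Xist, a gene outside the lists compared, had 15549, 11082 and 12484 counts in the libraries labelled Asn restriction 24 h, all labelled male, against 0, 0 and 1 counts in those labelled control 4 h.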

How the results depend on the processing

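With TMM, 4868 genes were called higher and 4127 lower. Leaving out each of the 6 libraries in turn gave 4579 to 4652 higher and 3716 to 3960 lower, with 2100 to 2125 higher and 959 to 1038 lower by at least 2-fold. Without TMM factors, 2684 were lower, 686 of them by at least 2-fold, 8 ATF4 genes were lower, and the log2 fold change was 0.16 for Atf4, 0.11 for Lck, 0.18 for Ldha, 0.17 for Max, 0.18 for Mcl1, 0.19 for Pkm, 0.014 for Pold2 and 0.14 for Wars, each of the other sign than with TMM. With ERCC scaling, 980 were lower, 456 of them by at least 2-fold, and 3405 were higher by at least 2-fold, the time part was lower for 2505 genes (1153 by at least 2-fold), the medium part for 2161 and the mirror comparison for 3335. There, 15 ribosome biogenesis and 2 ATF4 genes were lower, and Egr1 (0.15) and Pold2 (0.20), both called lower with TMM, turned sign. Here and without TMM factors, sign changes of genes called in neither fit are not listed. Requiring at least 10 counts in every library, which tests fewer genes, left 1220 higher and 524 lower by at least 2-fold. Of the cytokines, 3 were higher at an adjusted p of 0.01 and 3 to 5 when a library was left out, with 3 without control 4 h replicate 1. Pold2 lost its call without that library (log2 -0.14). The replicate block gave 4830 higher and 4074 lower. Same-numbered libraries did not deviate together (r of -0.013, 0.0037 and -0.010), so the numbers were not taken as pairs. The DESeq2 Wald test called 4536 higher and 4567 lower, and limma-voom 4839 and 4281. Over all alternatives run for named genes, 2559 values kept their side of the threshold, 44 passed it newly and 10 lost it. Another 10 turned sign, with a call in the main fit, the alternative or both. Values that turned sign with no call in either fit count among the 2559. The cause of these shifts was not tested.

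The comparison rests on 3 libraries a group, so p-values cover the spread between these libraries. The time part cannot be told apart from the change of sex pattern. Genes under a few CPM, such as Nqo1, Tox2, Socs2 and E2f8 in their lower group, rest on few counts. ERCC shares of the libraries compared were 1.26 to 1.36% in Asn restriction at 24 h and 1.35 to 1.62% in control at 4 h, and the choice of scaling sets the sign of small changes.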

Other observations

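Families of housekeeping genes, grouped by name after the data were seen, were compared with the share over all genes tested, of which 32.7% were higher and 27.8% lower than in control at 4 h, and 27.5% higher and 28.0% lower than in control at 24 h. Of 36 tested subunits of mitochondrial complex I, 30 were higher in Asn restriction at 24 h than in control at 4 h, with a median log2 fold change of 0.34, and 25 were lower than in control at 24 h. Of 37 proteasome subunits, 25 were higher and 4 lower (median 0.28), and 28 were lower and 2 higher than in control at 24 h. Of 74 mitochondrial ribosomal proteins, 32 were higher and 15 lower (median 0.12), and 59 were lower and 1 higher than in control at 24 h. Of 86 cytosolic ribosomal proteins, 16 were higher and 43 lower (median -0.16), but with ERCC scaling the 43 falls lost their call and 22 were higher, and many of them have near-identical copies that can share reads.

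Zbtb7b, which encodes the CD4 lineage factor ThPOK, had 613, 424 and 645 counts in Asn restriction at 24 h, against 22, 11 and 38 counts in control at 4 h, while Cd4 had 12, 20 and 18 counts, against 16, 7 and 7 counts.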
